A study of Mus musculus with 4 samples.

Results

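The estrogen receptor genes Esr1 and Esr2, the estrogen-related receptor genes Esrrb and Esrrg, and the progesterone receptor gene Pgr were examined for peaks of H3K36me2, the dimethylated form of lysine K36 of histone H3. The 5 genes were chosen by the number of peaks in and around them, with earlier results of these data known, and every peak in or within 100 kb of them was taken. This gave 20 of 16060 peaks, 14 of 7699 in the melatonin list and 6 of 8361 in the untreated list. Mesenchymal stem cells (MSCs) of mouse bone marrow were grown in culture, and 1 library was made after 24 hours with 1 µM melatonin, the pineal hormone, and 1 from untreated cells. Each chromatin immunoprecipitation (ChIP) library had its own input library, made without antibody, against which its peaks were called. The labels give the mice no strain, genotype, sex or age and do not say whether animals were pooled, although the design text of the series speaks of old donors. With 1 ChIP library per condition there is no replicate check, and a difference between the conditions is one between 2 libraries. Because peak counts were what the genes were selected on, those counts are a description and no test was made.

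Estrogen receptors are transcription factors of the nuclear receptor family that bind DNA at estrogen response elements once they hold estrogen. Estrogen preserves bone, and estrogen receptor alpha, the product of Esr1, carries much of that action in bone cells and their stromal precursors. The estrogen-related receptors resemble the estrogen receptors in sequence but do not bind estrogen, and Pgr is a classical target gene of estrogen receptor alpha. H3K36me2 is laid down by enzymes such as NSD2, usually over broad stretches of genes and of the sequence between them.

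The 2 RefSeq start sites of Esr1 are shown first, since the distances of its peaks are counted from them. The upstream one lies at the start of the gene and the downstream one 98.2 kb into it, both on the plus strand. Each sequence runs 5′ to 3′ from 250 bases before the start site to 50 bases from it, in RefSeq's GRCm38.p6, and capitals mark CG dinucleotides, the sites of DNA methylation.
Esr1 upstream start, chr10:4611739-4612038: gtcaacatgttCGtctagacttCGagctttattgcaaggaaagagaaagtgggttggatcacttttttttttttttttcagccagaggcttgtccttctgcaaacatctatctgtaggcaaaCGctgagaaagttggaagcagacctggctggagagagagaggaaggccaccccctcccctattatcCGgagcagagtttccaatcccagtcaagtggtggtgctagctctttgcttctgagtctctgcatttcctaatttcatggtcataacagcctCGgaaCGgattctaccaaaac
Esr1 downstream start, chr10:4709908-4710207: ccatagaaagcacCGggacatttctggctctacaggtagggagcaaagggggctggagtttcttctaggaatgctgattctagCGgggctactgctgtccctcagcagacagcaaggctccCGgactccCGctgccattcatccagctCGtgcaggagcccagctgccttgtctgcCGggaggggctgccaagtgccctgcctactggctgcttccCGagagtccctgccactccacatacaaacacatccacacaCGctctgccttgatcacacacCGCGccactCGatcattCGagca

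Neither window held a peak, and each had 1 melatonin peak nearby. The upstream window held 6 CG dinucleotides and a G and C content of 46.3%, and the nearest melatonin peak began 3.35 kb after it. The downstream window held 12 CG dinucleotides and a G and C content of 59.3%, and the nearest melatonin peak ended 2.61 kb before it. The nearest untreated peaks lay 53.9 kb after the upstream window and 9.83 kb before the downstream one. The other 8 start windows of the 5 genes had no peak of either library within 10 kb. Over all 10 windows the CG number ran from 6 to 22, against a median of 7 over 32619 RefSeq windows of this length. The letters AGGTCA, the core motif of the estrogen and estrogen-related receptors, read on both strands, were in 0 of the 10 windows and in 16.2% of all windows. No match means only that these letters are not in these windows.

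Peaks were found in the estrogen receptor genes and in none of the other members. Esr1 (chromosome 10, 4611989 to 5005633, 394 kb) held 13 peaks with melatonin (95% Poisson interval 6.92 to 22.2) and 5 without (1.62 to 11.7). Esr2 (chromosome 12, 76120419 to 76177259, minus strand, 56.8 kb), which encodes estrogen receptor beta, held 1 with melatonin and 0 without. Esrrb (chromosome 12, 86361117 to 86521628, 161 kb), known for its part in keeping embryonic stem cells pluripotent, held 0 in each library. Esrrg (chromosome 1, 187608510 to 188214885, 606 kb), a regulator of energy metabolism genes, and Pgr (chromosome 9, 8898900 to 8968611, 69.7 kb) also held 0 in each. A count of 0 allows up to 3.69 peaks by the same interval, and all intervals cover counting error only. As background, melatonin peaks fell in or within 2 kb of 6% of the 21627 protein-coding genes, untreated peaks of 5.78%, and both of 2.78%. Within 100 kb, 29.9% had a melatonin peak and 26.7% an untreated one. The members' counts in each direction were part of how they were chosen, so nothing is read from them against these shares.

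**Figure D1:**
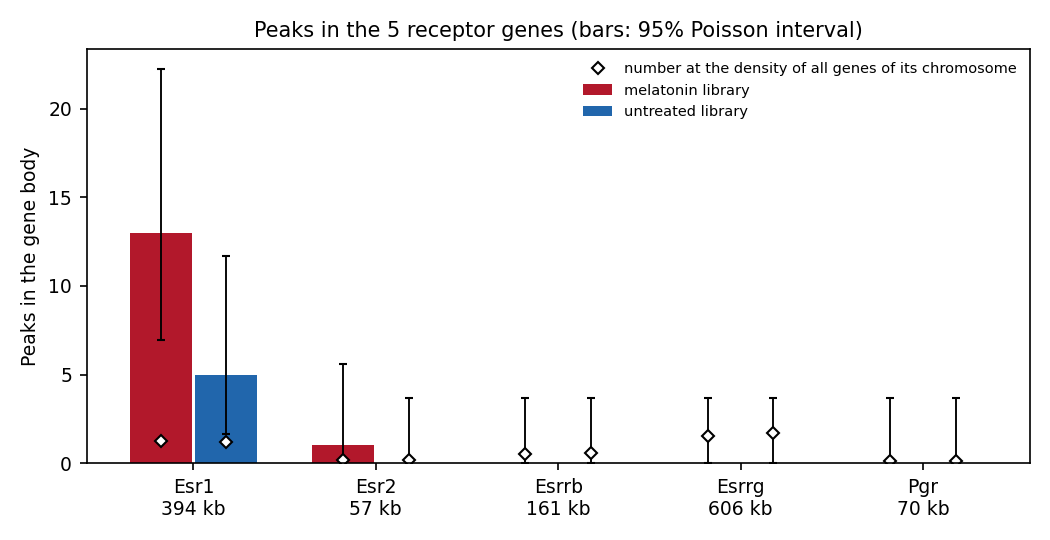
Number of H3K36me2 peaks (y axis) in the body of each receptor gene (x axis, with gene length), for the melatonin (red) and untreated (blue) library. Lines are 95% Poisson intervals and diamonds show the number that the peak density of all protein-coding gene bodies on the same chromosome would give. Esr1 stands at 13 and 5, Esr2 at 1 and 0, and Esrrb, Esrrg and Pgr at 0.

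The long gene Esrrg was without a peak over more sequence than Esr1 covers. At the density of all protein-coding gene bodies on chromosome 1, a gene of its length would hold 1.52 melatonin and 1.73 untreated peaks. Esrrb would hold 0.497 and 0.559, and Pgr 0.118 and 0.124. Of 133 genes near the length of Esrrg (486 to 758 kb), 39.1% had no peak in either library, and 64.4% of genes near the length of Esrrb and 85.9% near that of Pgr had none. The mark may be present below the calling limits where no peak was listed.

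The 100 kb limit held 1 peak in the outer part of a window, an untreated peak 96 kb before Esr1 (4514959 to 4515959, fold over input 4.36). It lay in Ccdc170, a neighbouring coiled-coil gene. Just outside the limit, the nearest melatonin peak to Esr1 lay 133 kb before it (fold 7.68) and the nearest untreated one 137 kb (fold 4.49). The nearest peaks to Pgr lay 168 kb away with melatonin, in the neighbouring gene Arhgap42 (fold 4.47), and 282 kb away without (fold 4.54). For Esrrb the nearest were 838 kb and 977 kb away, and for Esrrg 966 kb and 944 kb. Other than its melatonin peak, Esr2 had its nearest melatonin peak at 843 kb and its nearest untreated peak at 350.3 kb.

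The named neighbours of Esr2 and Esrrb held no peak. Syne2, Tex21 and Mthfd1 beside Esr2 and Gpatch2l beside Esrrb had 0 peaks in each library. Syne1, which encodes a nuclear envelope protein and begins 14.6 kb beyond the end of Esr1, held 1 melatonin peak and 0 untreated peaks over 531 kb.

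The melatonin peaks of Esr1 gathered in the middle of the gene. The first (4615387 to 4617370) lay just inside the upstream start and had 33 ChIP tags, 5 input tags and a fold of 6.61. The second (4706301 to 4707301, fold 5.36) lay shortly before the downstream start, and the third (4746533 to 4747533, fold 4.06) lay 135 kb into the gene. These 3 peaks were the only melatonin peaks in the first 196 kb.

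From 4808482 to 4849836, a stretch of 41.4 kb, there were 7 melatonin peaks and 2 untreated peaks. It opened with the peak at 4808482 to 4810345 (32.2 ChIP tags, 5 input tags, fold 6.43). The peak at 4813250 to 4814250 had the highest fold in the gene, 15.65, which rested on 15.7 ChIP tags over 1 input tag. The peaks at 4829484 to 4830484 and 4848836 to 4849836 had folds of 7.61 and 8.7 on 2 input tags each. The other 3, at 4838158 to 4839158, 4840064 to 4841064 and 4847480 to 4848480, had folds of 4.1, 4.24 and 5.51, so 2 of them lay close to the required fold of 4. Of these 7 peaks, the closest neighbours were 0.356 kb apart.

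Beyond this stretch came 3 more melatonin peaks and no untreated one. They lay at 4883761 to 4885298 (fold 5.48), 4907877 to 4908877 (fold 5.36) and 4929072 to 4930410 (fold 4.93). The last 75.2 kb of Esr1 had no peak in either library, and the next peaks lay 349 kb past the gene with melatonin, in Syne1 (fold 15.65), and 617 kb past it without (fold 5.55).

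The untreated peaks of Esr1 were spread over the first 231 kb. They lay at 4665968 to 4666968 (fold 4.98), 4699083 to 4700083 (fold 5.93), 4771337 to 4772337 (fold 4.14), 4809242 to 4810242 (fold 5.77) and 4842324 to 4843324 (fold 6.59). All 5 were 1000 bp wide, the minimum, and so were 9 of the 13 melatonin peaks. The gene's last 162 kb held no untreated peak.

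**Figure D2:**
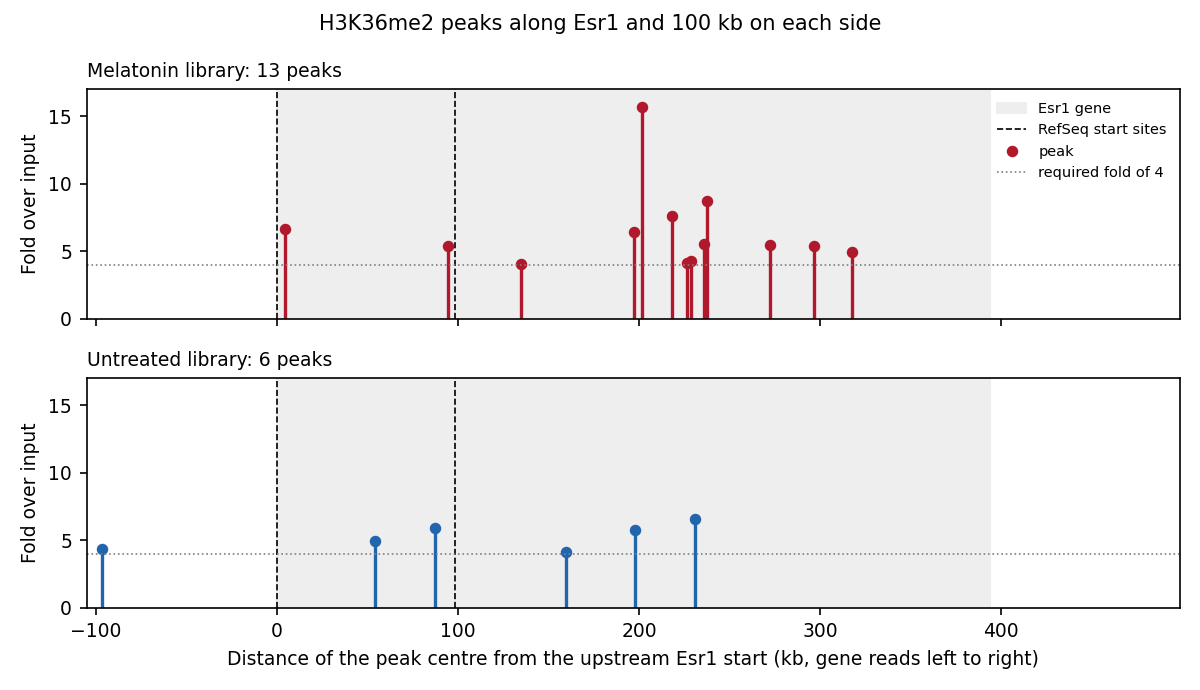
Peaks along Esr1 and 100 kb on each side in the melatonin (top) and untreated (bottom) library. The x axis is the distance of the peak centre from the upstream start in kb, the y axis the authors' fold over input, grey the gene, dashed lines its RefSeq starts and the dotted line the required fold of 4. The melatonin library shows 7 peaks between 196 and 238 kb, where the untreated library shows 2.

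In 4 equal parts of 98.4 kb along the gene, by peak centre, the melatonin library had 2, 1, 8 and 2 peaks. The untreated library had 2, 1, 2 and 0. The libraries thus held equal numbers in the first 2 parts of Esr1 and different numbers in the last 2. Outside the stretch of 41.4 kb the counts were 6 with melatonin and 3 without. This stretch was picked as the densest of up to 50 kb, so it does not test the difference.

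The melatonin peaks of Esr1 had a shorter median gap than peaks over the chromosome. A gene picked for many peaks has short gaps wherever its peaks lie, so the gaps are no second result beside the count. Neighbouring peaks in the gene had a median gap of 17.7 kb in the melatonin and 34.5 kb in the untreated library. Over chromosome 10 the median gaps were 35 and 34.7 kb, and over all chromosomes 64.1 and 51.5 kb. The untreated gaps in Esr1 thus resembled those of the chromosome, over 4 gaps only.

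Only 1 site of Esr1 was called in both libraries. The untreated peak at 4809242 to 4810242 lay wholly within the melatonin peak at 4808482 to 4810345, sharing 1000 bp, and their folds were 5.77 and 6.43. This was 1 of 14 melatonin peaks near the receptor genes (7.14%, exact binomial interval 0.181 to 33.9) and 1 of 6 untreated peaks (16.7%, 0.421 to 64.1). Over the whole lists, 6.12% of melatonin and 5.6% of untreated peaks overlapped a peak of the other list. The next closest pair, a melatonin peak ending at 4841064 and an untreated peak starting at 4842324, lay 1.26 kb apart. For the 13 melatonin peaks the median distance to the nearest untreated peak was 6.22 kb, against 16.3 kb on chromosome 10 and 24.5 kb over the list. The 5 untreated peaks also had a median of 6.22 kb, against 17.6 and 25.6 kb. A gene dense in peaks has short distances of this kind whatever the positions of its peaks.

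Since Esr1 was selected on these counts, its ratio between the libraries is given as a description beside those of its chromosome and of the lists. Melatonin peaks divided by untreated peaks came to 2.6 in the gene (exact 95% interval 0.87 to 9.31), 0.938 on chromosome 10 (0.851 to 1.03) and 0.921 over all peaks (0.893 to 0.95). The interval covers counting error only and treats peaks as independent, although those of Esr1 clustered. Without Esr1, the protein-coding gene bodies of chromosome 10 held 153 melatonin and 160 untreated peaks, a ratio of 0.956 (0.761 to 1.2).

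Esr1, which was chosen by its number of peaks, was dense in peaks for its chromosome in both libraries. It makes up 0.739% of the protein-coding gene sequence of chromosome 10 and held 7.83% of the melatonin and 3.03% of the untreated peaks there. At the density of all gene bodies on the chromosome, Esr1 included, it would hold 1.23 and 1.22 peaks. Within 1.5 Mb before the gene, the bins of 100 kb held at most 2 peaks in either library, 6 in all with melatonin and 7 without. In the 1.6 Mb that followed the bins of the gene there were 4 and 2.

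**Figure D3:**
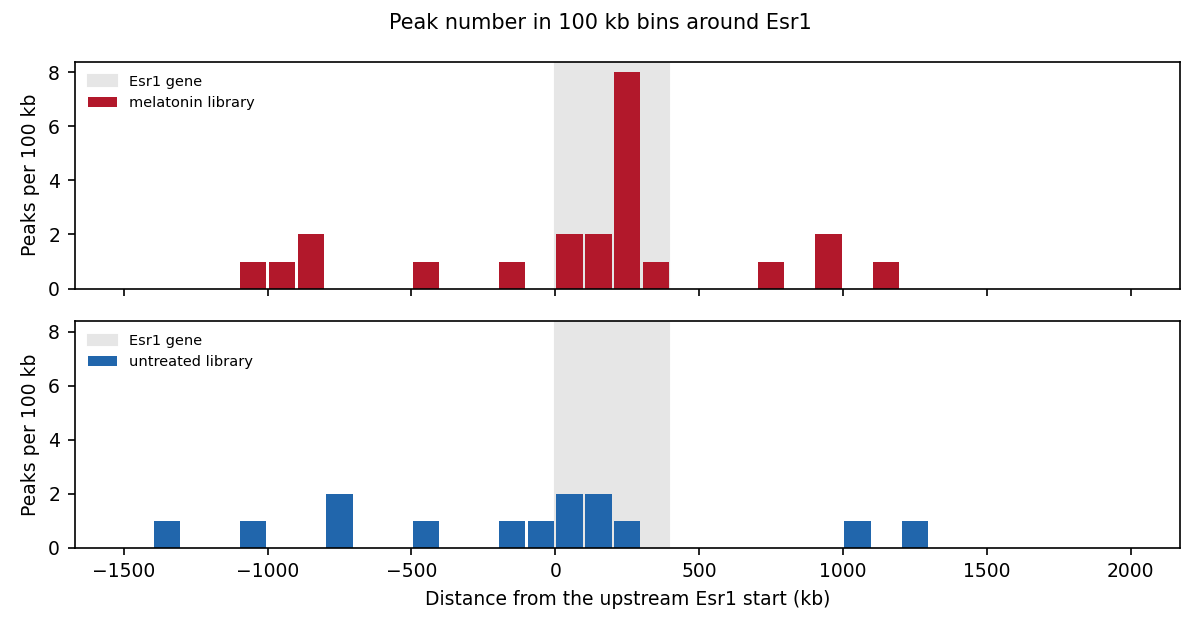
Number of peaks per 100 kb (y axis) against the distance from the upstream Esr1 start in kb (x axis), for the melatonin (top) and untreated (bottom) library, with the gene in grey. The bin from 200 to 300 kb holds 8 melatonin peaks and 1 untreated peak, and no other bin in either library holds more than 2.

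In tags, the median peak of Esr1 was close to the median of its list in both libraries. ChIP tags, scaled to the shallower of ChIP and input, ran from 14.3 through a median of 17 to 33 in the 13 melatonin peaks, where the whole list had a median of 16.5. In the 5 untreated peaks they ran from 17.5 through 18 to 21, where the list's median was 18. Per kb, the ChIP level of the melatonin peaks was 2.32 to 2.97 times the library's genome-wide mean, and that of the untreated peaks 2.65 to 3.18 times. The lists' medians were 2.61 and 2.65 times.

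Input was low in every peak of Esr1. It had a median of 3 tags per kb in the melatonin peaks, with a range of 1 to 4.5, against a genome-wide mean of 6.17. The mean of each library rests on the authors' genome size setting of 2000000000 bp, and a larger size would lower it. In the untreated peaks the median input was 3.1, with a range of 2.7 to 5.1, against a mean of 6.6. All 18 peaks therefore lay below the mean, as did 99.97% and 99.95% of the peaks in the 2 lists. The required fold of 4 fixes this outcome for the 18 peaks, since no ChIP level among them reached 4 times the mean. The fold over input combines a raised ChIP level and a lowered input level, and the part of low input in these calls was not tested.

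**Figure D4:**
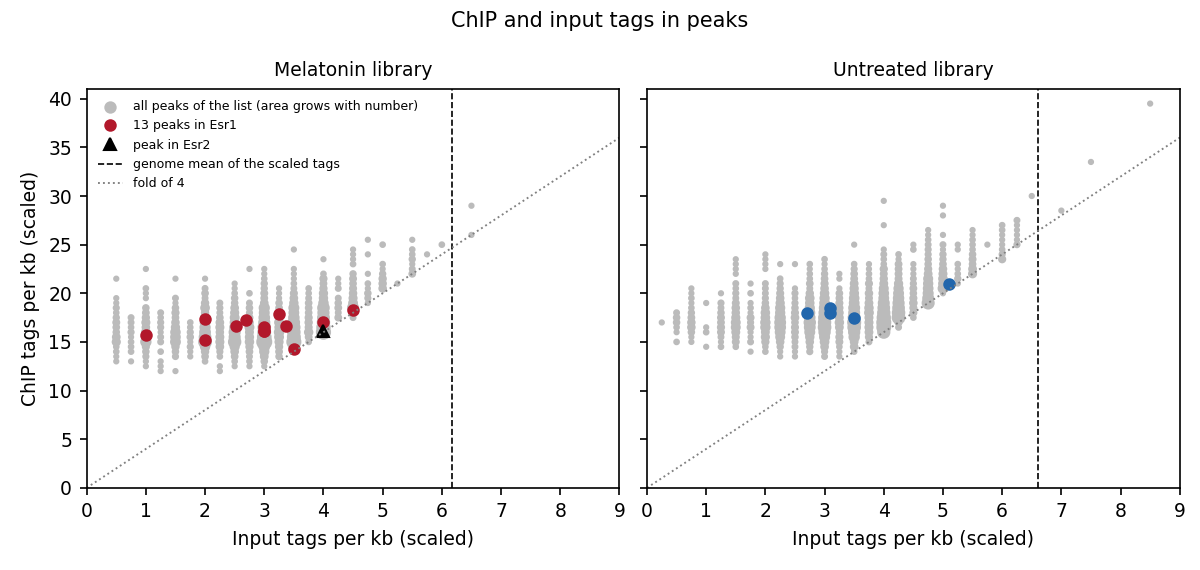
ChIP tags per kb (y axis) against input tags per kb (x axis), both scaled, in the peaks of the melatonin (left) and untreated (right) library. Grey marks all peaks, colour those of Esr1, the triangle the Esr2 peak, the dashed line the genome-wide mean and the dotted line a fold of 4. The Esr1 peaks lie among the grey points. They also lie left of the dashed line in both libraries, which the required fold of 4 fixes at their ChIP levels.

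The folds of Esr1 peaks had medians somewhat above those of their lists, and their highest values lay far below the list maxima. With melatonin they ran from 4.06 through a median of 5.48 to 15.65, against a list median of 5.11 and a list maximum of 45.2. Without it they ran from 4.14 through 5.77 to 6.59, against a median of 4.87 and a maximum of 55.1. A fold of 6 or more was reached by 5 of 13 melatonin peaks (38.5%, list 30.1%) and 1 of 5 untreated peaks (20%, list 24.1%). By ChIP tags over the whole region, the peaks at 4615387 and 4808482 stood at the 99th and 98.8th percentile of the melatonin list and the one at 4883761 at the 96.7th. The first 2 had the lowest p-values of the gene and were the 2 widest, at 1983 and 1863 bp. Their p-values over input in the authors' lists were 1.06e-16 and 7.02e-16, without adjustment.

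The single peak of Esr2 had a fold close to the lower limit and an average ChIP level. It lay at 76150929 to 76151929 on chromosome 12, 25.3 kb from the start of the gene, and had 16.1 ChIP tags, 4 input tags and a fold of 4.02. By fold it stood at the 2.27th percentile of the melatonin list and by ChIP tags at the 37.9th, and its ChIP level per kb was 2.61 times the genome-wide mean, the same as the list's median. It overlapped 383 bp of the pseudogene Gm7862 (76151546 to 76152747), which lies inside Esr2. A pseudogene resembles its parent gene, so reads here may be hard to place, and this was not tested. The nearest untreated peak was 381 kb away.

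Set beside all 21627 protein-coding genes, with 2 kb on each side, Esr1 ranked 7th by melatonin peaks and 72nd by untreated peaks. Both ranks are ties, as Esr1 was 1 of 2 genes at the first count and 1 of 20 at the second. Its difference of 8 peaks was shared with Tg (10 and 2), the thyroglobulin gene, and Atrnl1 (9 and 1), and no gene had a larger one in this direction. These 3 genes are 0.0139% of those tested. In the other direction 5 genes (0.0231%) differed by 8 or more, and the largest such difference was 15. Differences of this size were therefore found both ways between the libraries.

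Among the 286 genes of like length, from 316 to 492 kb, 127 had a melatonin peak and 128 an untreated peak, and the median was 0 in each. Esr1 had the most melatonin peaks, tied with Gtdc1 (13 and 13), and ranked 19th by untreated peaks, among 7 tied genes. The genes nearest to its pair of counts, by Euclidean distance over the 2 libraries, were Creb5 (9 and 5, distance 4), Slc24a3 (8 and 5, distance 5), Tnr (8 and 2, distance 5.83), Palld (7 and 4, distance 6.08) and Scfd2 (7 and 4, distance 6.08). They lie on chromosomes 6, 2, 1, 8 and 5.

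**Figure D5:**
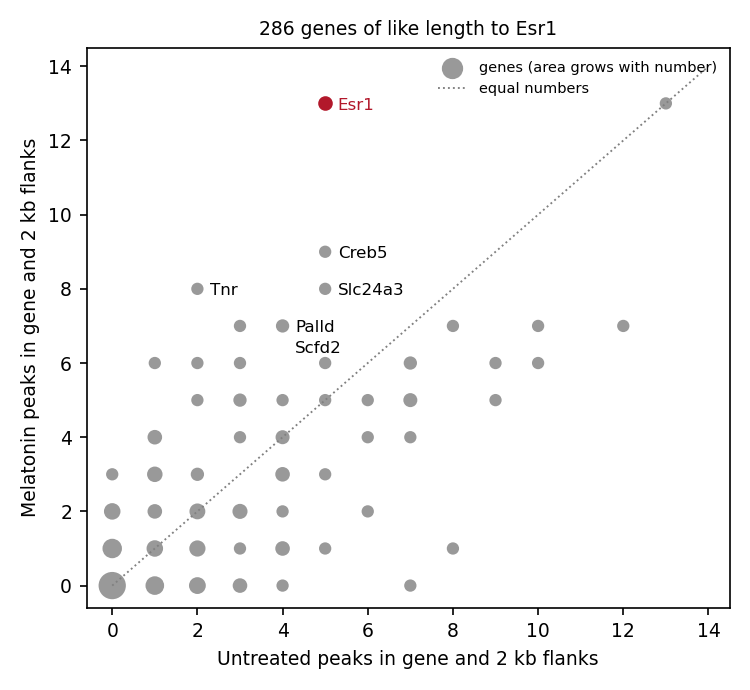
Melatonin peaks (y axis) against untreated peaks (x axis) in the gene and 2 kb flanks, for the 286 protein-coding genes of 316 to 492 kb. Larger points hold more genes and the dotted line marks equal numbers. Esr1 (red) lies at 13 and 5, farthest above the line.

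Other genes of the steroid receptor pathway were mostly without peaks, as were protein-coding genes in general. Of 7 further receptors or binding proteins of steroid hormones, 2 had a peak with melatonin (28.6%) and 1 without (14.3%), in the body or within 2 kb. The median was 0 peaks per gene in this and each following list, as over all protein-coding genes, of which 6% and 5.78% had a peak. Nr3c1, the glucocorticoid receptor gene, had 1 in each library, with folds of 22.2 and 4.21 at sites that did not overlap. Over all peaks, 6.12% of melatonin and 5.6% of untreated peaks overlapped the other list. Nr3c2, the mineralocorticoid receptor gene, had 1 with melatonin alone (fold 5.22). Esrra, the third estrogen-related receptor gene, had none.

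Of 18 genes for coactivators, corepressors and pioneer factors of these receptors, 3 had a peak in each library (16.7%). The median length of the 18 was 94.5 kb, against 17.3 kb for all protein-coding genes. Ncoa1, which encodes a steroid receptor coactivator, had 3 with melatonin and 6 without, the opposite order to Esr1. Ppargc1a, whose product drives estrogen-related receptors in energy metabolism, had 2 and 2, and its relative Ppargc1b had 1 and 1. None of the peaks of these 3 genes overlapped across the libraries, and over all peaks 6.12% of melatonin and 5.6% of untreated peaks did. None of 12 genes of estrogen and progesterone synthesis and breakdown had a peak in the body or within 2 kb, including the aromatase gene Cyp19a1. Over all protein-coding genes only 6% had a melatonin peak and 5.78% an untreated one there, so nothing is read from this.

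Of 31 other nuclear receptor genes, 7 had a peak in each library (22.6%), with a median of 0 peaks in both the list and all genes. Their median length was 47.1 kb, against 17.3 kb for all protein-coding genes. The most peaks were in the retinoic acid receptor gene Rarb (6 with melatonin and 9 without) and the thyroid hormone receptor gene Thrb (2 and 6), which are both on chromosome 14. Pparg followed with 2 and 4, Rora with 3 and 2, Nr6a1 with 2 and 1, and Rorb with 0 and 2. In the whole list there were 17 melatonin and 25 untreated peaks, and none overlapped a peak of the other library. Over all peaks 6.12% and 5.6% did, so nothing is read from this.

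A histone mark does not measure expression, so the identity of the cells could not be checked from these lists. Of 10 MSC marker genes, Nt5e had peaks with melatonin (10%) and Nt5e and Lepr without (20%). Of 8 genes that mark other marrow cells, Ptprc, Pecam1 and Csf1r had peaks with melatonin (37.5%) and 0 had one without, in the body or within 2 kb. Over all protein-coding genes these shares were 6% and 5.78%. The median gene length was 38 kb for the MSC markers and 40.7 kb for the others, against 17.3 kb for all protein-coding genes. Within 100 kb, untreated peaks lay near the genes of other marrow cells too, 5 near Ptprc (3 with melatonin), 4 near Cd34 (1), 1 near Pecam1 (3) and 0 near Csf1r (2). Near the MSC markers there were 8 untreated peaks at Vcam1 (5 with melatonin), 7 at Prrx1 (2), 5 at Ly6a (3), 4 at Nt5e (4) and 1 at Lepr (0). Thy1 and Pdgfrb each had 1 melatonin peak and 0 untreated, and the remaining markers of both groups had none. Over all protein-coding genes, 29.9% had a melatonin and 26.7% an untreated peak within 100 kb. Whether other cells took part in the difference at Esr1 was not tested.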

How the data were processed

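H3K36me2 ChIP-seq peak lists of 2 libraries were used, 1 per condition. The names of the deposited files carry the identifiers of the input libraries, but the headers inside name the ChIP library of that condition as the source and its input as control, and the files were used so. Per the file headers, the authors called them with HOMER findPeaks in histone style, each library against its own input, in windows of 1000 bp stitched into regions. Windows needed at least 18 tags (melatonin) or 17 (untreated), 4 times the input, and a p of 1e-04 against it. The headers give 14180076.5 total tags for the melatonin and 13198427.5 for the untreated library, and a local background filter that removed 0 regions. Per the submitters' processing notes, BWA 0.7.13, Picard 1.126 and MACS2 2.1.0 were used.

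The deposited signal columns hold ChIP tags per 10000000 and ChIP and input tags with the deeper library scaled down. The deposited score is the authors' tag score and was not used to compare libraries. The authors' fold is the ratio of ChIP tags to input tags after scaling, and the authors' p-value comes from a Poisson model without adjustment. The deposited region size is in bp. The notes name mm39, but peaks end at 159805034 on chromosome 3 and 145328623 on chromosome 7, beyond those chromosomes in mm39, and coordinates were read as GRCm38. The gene table (RefSeq, GRCm38.p6) has no exons, so exons and introns were not separated.

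A peak counted for a gene at an overlap of 1 bp or more. The genome-wide mean of input tags was derived from the scaled totals and the headers' genome size of 2000000000 bp. Python 3.11.15, pandas 2.3.3 and scipy 1.17.1 were used, and the counting was tested on simulated peaks. Members, lists and the naming rule were chosen with earlier results of these data known. The rule names the 5 members, protein-coding genes in their windows, up to 6 genes per list by number of peaks, and the 5 genes of like length (up to 20% shorter or 25% longer) nearest to Esr1 in counts. Genes named outside it, after their values were seen, are Tg, Atrnl1, Gtdc1, Esrra, Cyp19a1, Cd34, Vcam1, Prrx1, Ly6a, Thy1 and Pdgfrb. Results for 2 items are not reported here. One of 13 listed synthesis genes was not matched. Alternatives were other flanks, a fold of 6, a p of 1e-05, equal numbers of peaks and other overlap rules.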

Additional observations from a re-analysis of the deposited data

How the results depend on the processing

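More melatonin than untreated peaks were counted in Esr1 and in the windows of the 5 genes under every alternative run. The alternatives recount or subset the same peaks by which the genes were chosen, so they do not test the difference. With a fold of at least 6, the windows held 5 melatonin peaks and 1 untreated peak, all in Esr1 (5 and 1), and 0 melatonin peaks overlapped an untreated one. With each list cut to its 3849 peaks of lowest p, the windows held 8 and 3, again all in Esr1 (8 and 3). A p of at most 1e-05, flanks of 50 kb and gene bodies with 2 kb flanks moved no count by more than 1.5 times. The 1 overlapping melatonin peak was also found with an overlap of 500 bp and with a gap of at most 1 kb, and a gap of at most 5 kb gave 5. No share over all peaks is given for that gap or for a fold of 6, so nothing is read from either count. No paired analysis was possible because each condition had 1 ChIP library and no replicate number. Most peaks rest on 5 input tags or fewer, so 1 tag more or less can move a peak across the required fold.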

Other observations

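The fold over input takes few values when input is low. The Esr1 peak of highest fold and the melatonin peak in Syne1, the next gene along, had the same fold of 15.65, and the first of them rested on 1 input tag.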
